A study of Mus musculus with 6 samples.

Results

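The proteasome genes of mouse liver were examined in 6 RNA-seq libraries. The members were all genes whose symbol begins with Psma, Psmb, Psmc, Psmd, Psme, Psmf or Psmg and that had at least 10 expected counts in 1 or more libraries. No change between conditions entered that rule. Of 50 symbols that match, 49 were members, out of 18443 genes listed. The one left out was Psmc3ip, which encodes a recombination protein and not a proteasome subunit. The libraries came from male C57BL/6 mice (C57BL/6J in the study's methods) with a labelled age of 6 to 8 weeks, 1 library per condition. In the diet model, mice ate a standard diet (SD) or a high fat diet (HFD) for 16 weeks, and the third library, HFD plus JT003, came from HFD mice also given JT003 for 4 weeks. In the CCl4 model, mice were injected every 3 days for 6 weeks with corn oil or with the hepatotoxin CCl4 in corn oil, and the third library, CCl4 plus JT003, came from CCl4 mice also given JT003 for 3 weeks. JT003 is a peptide agonist of both adiponectin receptors and was given at 0.5 mg/kg. GEO's labels give NASH as the disease state of the HFD library. Whether a library holds 1 mouse or a pool was not stated in the sources used here.

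The 26S proteasome degrades proteins that carry ubiquitin chains. Its 20S core is a barrel of stacked rings, built from alpha subunits (Psma genes) that gate the entry and beta subunits (Psmb genes), of which Psmb6, Psmb7 and Psmb5 form the beta1, beta2 and beta5 catalytic sites. Under interferon the immune subunits Psmb9, Psmb10 and Psmb8 take the places of these same sites and shift the peptides made toward those presented on MHC class I. The 19S cap holds a ring of ATPases (Psmc genes), which unfold substrates, and non-ATPase subunits (Psmd genes), which bind and remove ubiquitin. The activators (Psme genes) open the core without the 19S cap, Psmf1 encodes the inhibitor PI31, and the Psmg genes and Psmd5, Psmd9 and Psmd10 encode chaperones that assemble the particle and leave it. In hepatocytes the proteasome also removes misfolded proteins that are exported from the endoplasmic reticulum.

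The libraries held 19374236 to 20184539 counts each over named genes. Alb, the plasma albumin that defines hepatocytes, took 5.29% to 7.62% of them. Levels are given in FPKM, which is per length and so can be set side by side between genes. Changes between 2 libraries are given as log2 ratios of expected counts after TMM scaling, where 1 stands for a 2-fold difference and -0.5 for a 1.41-fold lower value. A gene was called when the adjusted p of an exact binomial test was under 0.001 and the log2 ratio was at least 0.5 in size. With 1 library per condition this test compares 2 libraries and not 2 conditions, and its intervals cover counting error alone. FPKM follows total reads and not TMM, so a fold read from FPKM differs from the log2 ratio given beside it. Of the 49 members, 43 had whole counts in every library, and 6 (Psma3, Psmb11, Psmd8, Psmd9, Psme2 and Psme2b) had counts split between genes or transcripts that share reads.

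The 31 genes of the constitutive particle, 14 of the 20S core and 17 of the 19S cap, were all well expressed. Their median FPKM was 67.3 in SD, 54.1 in HFD and 49.5 with HFD plus JT003, against 69.5 in corn oil, 66.1 after CCl4 and 58.3 after CCl4 plus JT003. The weakest of them in every library was Psmd14, which encodes the deubiquitinase of the 19S lid, with an FPKM of 23.5 in SD, 24.7 in HFD and 23.0 with HFD plus JT003, against 27.2 in corn oil, 19.8 after CCl4 and 17.7 after CCl4 plus JT003. The strongest was Psmb4, a non-catalytic beta subunit, in 4 libraries and Psmb7, the beta2 site, in both HFD libraries. Across the 6 libraries the highest FPKM of a constitutive gene was 1.12 to 2.59 times its lowest, with a median of 1.49. The lowest of the 6 FPKM values lay in HFD plus JT003 for 18 of the 31 genes and the highest in corn oil for 17. Summed over the 31 genes, FPKM was 2247 in SD, 1744 in HFD and 1690 with HFD plus JT003, against 2415 in corn oil, 2117 after CCl4 and 2101 after CCl4 plus JT003. Both injured diet libraries and both injured CCl4 libraries thus lay under the control library of their own model.

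**Figure D1:**
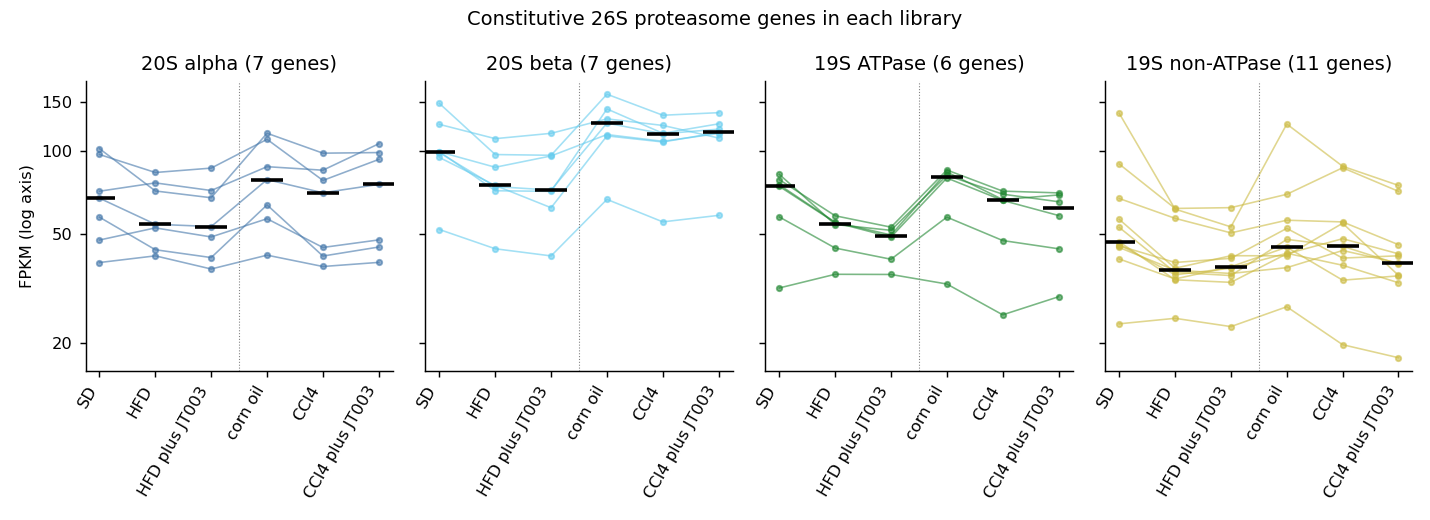
FPKM on a log axis of the 31 constitutive proteasome genes in the 6 libraries, by class. Each line is 1 gene, black bars are class medians, and the dotted line separates the diet model from the CCl4 model. The median of the 19S ATPases went from 74.8 in SD to 54.5 in HFD, and from 80.6 in corn oil to 66.3 in CCl4.

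The first comparison asked how the genes differed between the livers of HFD and SD mice. The constitutive particle was lower in HFD as a group, whereas 2 of the 3 immune subunits were called higher. Of the 31 constitutive genes, 14 were called lower in HFD and 0 higher, while 6.83% of all 16972 genes tested were called lower and 6.37% higher. In total 29 of the 31 had a log2 ratio below 0, and the median was -0.49, beside 0.00 over all genes. Abundant genes are called more readily, and among the 9375 genes with a mean of at least 100 counts 11.1% were called lower. The calls covered 2 of 7 alpha subunits, 3 of 7 constitutive beta subunits, 4 of 6 ATPases and 5 of 11 non-ATPases. By total reads alone the median of all genes was 0.12 and that of the 31 was -0.36, with 7 of them called lower. At that scaling 4.72% of all genes were called lower. Fewer cells of a type and less RNA per cell cannot be told apart in such bulk libraries.

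The called member that differed most was Psmd4, which encodes a ubiquitin receptor of the 19S cap. Its counts were 3680 in SD, 1614 in HFD and 1399 with HFD plus JT003, against 3242 in corn oil, 2359 after CCl4 and 1933 after CCl4 plus JT003. HFD over SD gave a log2 ratio of -1.28 (95% interval -1.37 to -1.20, adjusted p = 1.22e-209, exact binomial test). It was the only constitutive gene past a 2-fold difference in this comparison. All 4 injured libraries lay below both control libraries for Psmd4, with HFD plus JT003 the lowest. Psmb4 had counts of 2796 in SD, 1784 in HFD and 1782 with HFD plus JT003, against 2913 in corn oil, 2530 after CCl4 and 2487 after CCl4 plus JT003, and its HFD over SD log2 ratio was -0.74 (95% interval -0.83 to -0.65). Both HFD libraries were below all the others for this gene. Among the ATPases the log2 ratios of Psmc1, Psmc3, Psmc4 and Psmc5 lay between -0.73 and -0.56, and that of Psmc2 was -0.50, just under the fold threshold. Psmc6, the sixth ATPase, stood at 0.04 (95% interval -0.08 to 0.17), outside the range of the other five.

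Psmb9, the immune beta1 subunit, had counts of 166 in SD, 370 in HFD and 309 with HFD plus JT003, against 184 in corn oil, 232 after CCl4 and 227 after CCl4 plus JT003, and was higher in HFD than in SD by a log2 ratio of 1.06 (95% interval 0.80 to 1.34, adjusted p = 3.60e-15, exact binomial test). Both HFD libraries were above the other 4 for Psmb9. Psmb10, the immune beta2 subunit, had counts of 318 in SD, 606 in HFD and 611 with HFD plus JT003, against 370 in corn oil, 571 after CCl4 and 720 after CCl4 plus JT003. It was higher in HFD by 0.84 (95% interval 0.64 to 1.04), and the 2 control libraries held its lowest counts. Psmb8, the immune beta5 subunit, had counts of 367 in SD, 496 in HFD and 557 with HFD plus JT003, against 341 in corn oil, 488 after CCl4 and 480 after CCl4 plus JT003, a log2 ratio of 0.34 (95% interval 0.15 to 0.54) that was not called. The 2 control libraries were again lowest, but the gap was smaller.

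Of the 3 constitutive catalytic subunits that these replace, 1 was called lower in the same comparison. Psmb6 (beta1) had an FPKM of 98.5 in SD, 74.2 in HFD and 72.04 with HFD plus JT003, against 126 in corn oil, 115 after CCl4 and 119.9 after CCl4 plus JT003, and its log2 ratio in HFD over SD was -0.53 (95% interval -0.63 to -0.43), called lower. Psmb7 (beta2) had an FPKM of 125 in SD, 111 in HFD and 116 with HFD plus JT003, against 131 in corn oil, 124 after CCl4 and 111 after CCl4 plus JT003 and a log2 ratio of -0.29 (95% interval -0.38 to -0.21), not called. Psmb5 (beta5) had an FPKM of 94.6 in SD, 74.9 in HFD and 62.2 with HFD plus JT003, against 113 in corn oil, 108 after CCl4 and 117 after CCl4 plus JT003 and a log2 ratio of -0.46 (95% interval -0.57 to -0.35), not called. Corn oil held the highest FPKM of Psmb6 and Psmb7, and CCl4 plus JT003 that of Psmb5. Both HFD libraries held the lowest values of Psmb6 and Psmb5.

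The immune form as a percent of the FPKM of both forms shows these changes together. At the beta1 site, Psmb9 made up 9.61% in SD, 24.3% in HFD and 21.6% with HFD plus JT003, against 8.71% in corn oil, 11.3% after CCl4 and 11.1% after CCl4 plus JT003. At the beta2 site, Psmb10 made up 9.11% in SD, 18.04% in HFD and 17.4% with HFD plus JT003, against 10.4% in corn oil, 15.4% after CCl4 and 20.9% after CCl4 plus JT003. At the beta5 site, Psmb8 made up 13.7% in SD, 21.7% in HFD and 27.2% with HFD plus JT003, against 11.3% in corn oil, 15.6% after CCl4 and 14.9% after CCl4 plus JT003. The constitutive form was thus the larger at each site in every library. The HFD library was above SD at all 3 sites, and the CCl4 library was above corn oil at all 3, by less at beta1. These shares have no replicate spread and were not tested. Taken from reads without division by length the percentages differ, but HFD stayed above SD and CCl4 above corn oil at each site.

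**Figure D2:**
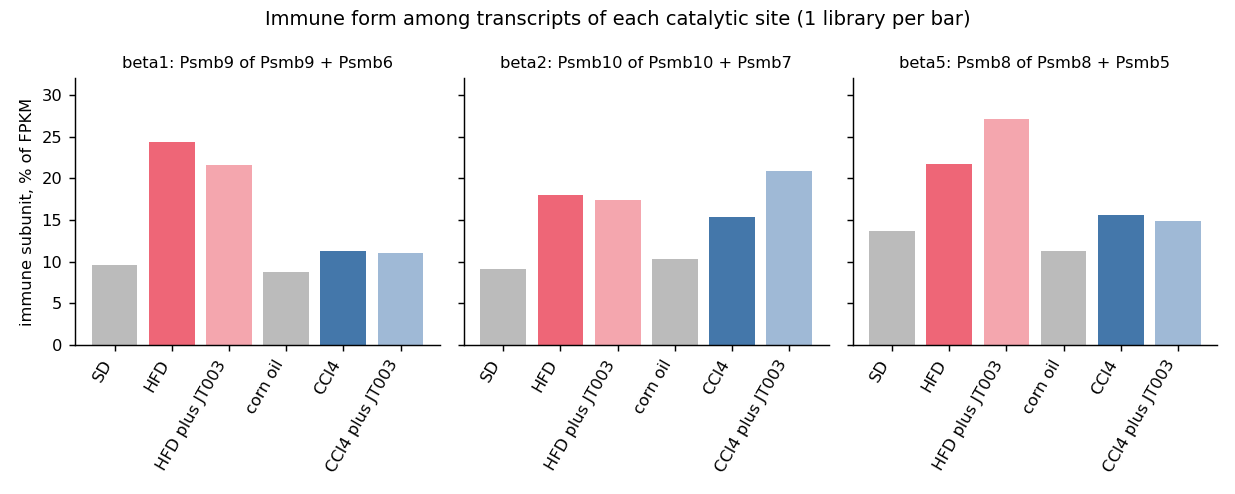
FPKM of the immune subunit as a percent of the sum of the immune and the constitutive subunit at the 3 catalytic sites, 1 bar per library. Grey bars are the control libraries, red bars the HFD libraries and blue bars the CCl4 libraries, the paler bar of each pair being the one with JT003. The beta1 share of the 2 HFD libraries stands apart from the other 4.

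Interferon response genes, like the immune subunits, were higher in HFD than in SD. Of 6 such genes, 4 (Ifit1, Ifit3, Isg15 and Gbp2) were called higher in HFD than in SD, and the list's median log2 ratio was 1.25. Their summed FPKM was 27.9 in SD and 61.6 in HFD. Leukocyte genes summed to 52.02 FPKM in SD and 53.97 in HFD, with 1 of 5, Ptprc, called higher. Macrophage genes summed to 93.8 and 107 FPKM, with 0 of 5 called (log2 ratios -0.28 to 0.24). The T and NK cell list summed to 2.19 and 2.44 FPKM and the B cell list to 1.18 and 1.15. Of 7 hepatocyte genes, Apoa1 and Cps1 were called lower. The part of these cells and signals in the subunit changes was not tested.

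The next comparison asked the same of the CCl4 and corn oil libraries. The constitutive particle was again lower as a group, and none of the immune subunits was called. Of the 31 constitutive genes, 13 were called lower in CCl4 and 0 higher, while 6.98% of all 17234 genes tested were called lower and 9.25% higher. A log2 ratio below 0 was seen for 29 of the 31, and the median was -0.48, beside 0.00 over all genes. Among genes with a mean of at least 100 counts, 10.9% were called lower. The calls covered 3 of 7 alpha subunits, 2 of 7 constitutive beta subunits, 4 of 6 ATPases and 4 of 11 non-ATPases. The size of the group's shift depends on the scaling: by total reads alone the median of all genes was 0.23 and that of the 31 was -0.25, with Psma5 and Psmd4 among them called lower. Of the other members, Psmd9 was then called lower and Psmb10, Psmd5 and Psme3 higher. At that scaling 3.22% of all genes were called lower and 16.8% higher. Where edgeR was given a spread between mice (a biological coefficient of variation of 0.2), 0 members were called in this comparison or in HFD over SD. At that setting, with an adjusted p under 0.05, 4.23% of all genes were called here and 2.53% in HFD over SD.

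Psma5, an alpha subunit of the core ring, differed most among the members in CCl4 over corn oil. It had counts of 1397 in SD, 1041 in HFD and 980 with HFD plus JT003, against 1493 in corn oil, 1008 after CCl4 and 1046 after CCl4 plus JT003, and the CCl4 over corn oil log2 ratio was -0.85 (95% interval -0.97 to -0.74, adjusted p = 1.70e-47, exact binomial test). All 4 injured libraries were below both controls for Psma5. Psma6, another alpha subunit, had counts of 1920 in SD, 1616 in HFD and 1685 with HFD plus JT003, against 2092 in corn oil, 1544 after CCl4 and 1757 after CCl4 plus JT003 and a log2 ratio of -0.73 (95% interval -0.82 to -0.63), with CCl4 the lowest of the 6. Psmd4 was lower with a log2 ratio of -0.75 (95% interval -0.82 to -0.67) and Psmd14 with -0.69 (95% interval -0.85 to -0.54). For Psmd14 the CCl4 libraries were the 2 lowest, and the diet libraries were close to each other. The immune subunits had log2 ratios of 0.05 (95% interval -0.24 to 0.33) for Psmb9, 0.23 (95% interval 0.03 to 0.43) for Psmb8 and 0.34 (95% interval 0.15 to 0.53) for Psmb10.

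Markers of other cell types also differed between the CCl4 and corn oil libraries. Macrophage genes summed to 25.95 FPKM in corn oil and 82.8 in CCl4, and 4 of 5 were called higher. Leukocyte genes summed to 27.1 and 53.2 FPKM, with 2 of 5 called higher. In SD, the other control, the macrophage sum was 93.8 and the leukocyte sum 52.02. Corn oil was the lowest of the 6 libraries for both lists. Genes of dividing cells summed to 1.99 and 54.9 FPKM, with 5 of 5 called higher. T and NK cell genes summed to 2.07 and 0.78 FPKM, with 0 of 6 called. Cd3e, which defines T cells, had 7 counts in corn oil and 0 in CCl4. The interferon list had a median log2 ratio of -0.20, with Ifit1 called lower and Oas1a and Irf7 higher. Of 7 hepatocyte genes, Apoa1 and Cps1 were called lower. The part of these cells in the subunit changes was not tested.

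Another source of CCl4 counts gave a check on this comparison. A pooled column that the authors labelled CCl4 summed to 2.97 times the CCl4 library, so the CCl4 library was subtracted from it, which left 39780549 counts. That this remainder comes from other CCl4 livers is inferred from the values, and the check was chosen after seeing the data. Over corn oil, the remainder had 20 of the 31 constitutive genes called lower and 0 higher, with a median log2 ratio of -0.61, while 8.59% of all genes were called lower and 12.2% higher. Psmd4 stood at -1.14 (95% interval -1.21 to -1.08) and Psma5 at -0.95 (95% interval -1.05 to -0.85). Psma1 and Psmc6 passed the threshold with the CCl4 library but not here, at -0.37 and -0.40. The corn oil library is shared by both comparisons. Set directly against the remainder, the CCl4 library had 0 of 49 members called, with log2 ratios of -0.22 to 0.40 among the constitutive genes and a median of 0.19, while 6.54% of all genes were called.

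Set side by side, each model had 29 of the 31 constitutive genes below 0, and the sets of called genes overlapped in part. Of the 14 constitutive genes called lower in HFD and the 13 called lower in CCl4, 5 were in both sets, namely Psma5, Psmb3, Psmc3, Psmc5 and Psmd4. These make up 35.7% of the first set and 38.5% of the second. The 2 comparisons share no library. Sets of these sizes among 31 genes share members by size alone, and nothing is read from the overlap. The difference between the log2 ratios, diet minus CCl4, was -0.87 (95% interval -1.01 to -0.73) for Psmd11, a scaffold subunit of the lid, -0.74 (95% interval -0.86 to -0.62) for Psmd8 and -0.52 (95% interval -0.68 to -0.37) for Psmd13. These 3 non-ATPases were called lower in HFD, and their CCl4 over corn oil ratios were 0.15, 0.08 and -0.06. The difference had the other sign for Psmc6 at 0.65 (95% interval 0.47 to 0.83) and Psma1 at 0.61 (95% interval 0.45 to 0.77). It also had the other sign for Psmd14, itself a lid subunit, at 0.64 (95% interval 0.43 to 0.85). So did the non-ATPases Psmd6 and Psmd12, at 0.27 each. The remaining non-ATPases had the sign of Psmd11, at -0.53 to -0.10. For Psmb9 the difference was 1.01 (95% interval 0.63 to 1.40). No replicate spread stands behind these intervals.

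**Figure D3:**
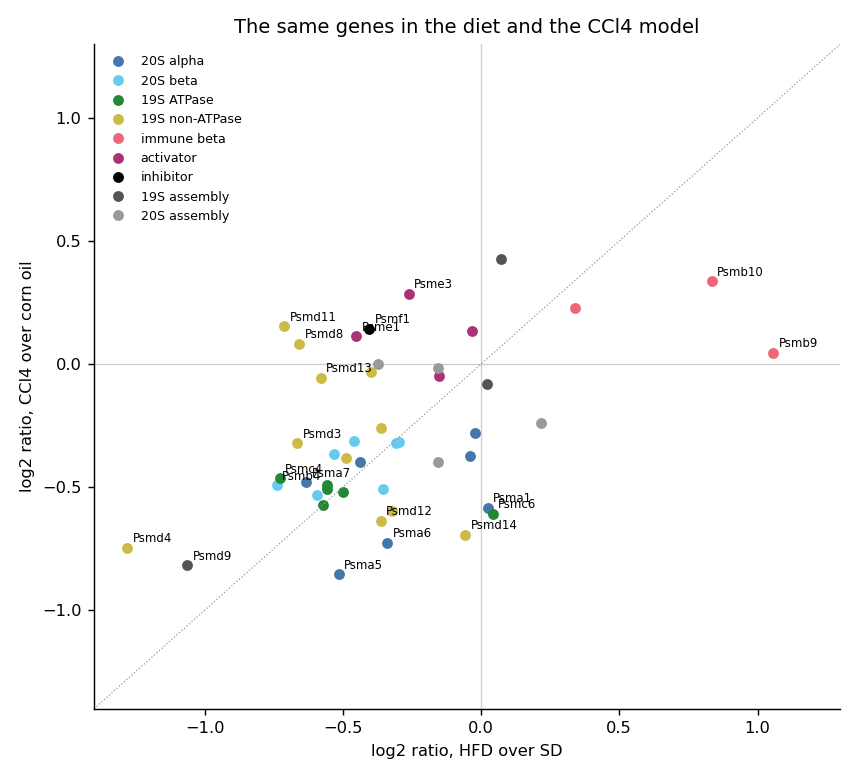
Log2 ratio of each proteasome gene in HFD over SD (horizontal) against CCl4 over corn oil (vertical), coloured by class, without the low-count genes Psma8, Psmb11 and Psme2b. Points on the dotted line have equal ratios in both models. Most 20S and 19S genes lie in the lower left, Psmd4 and Psmd9 farthest, and the 3 immune subunits lie at the upper right.

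**Figure D4:**
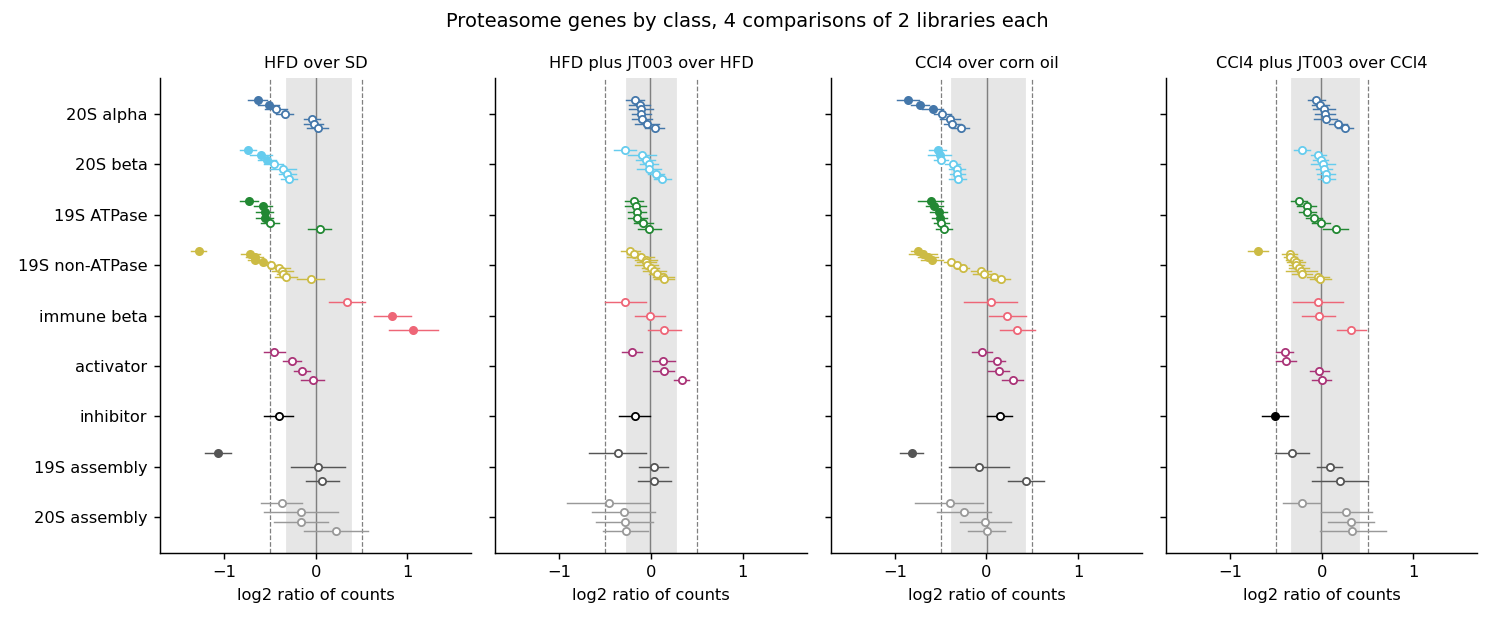
Log2 ratios of proteasome genes by class in 4 comparisons of 2 libraries each, with 95% intervals from counting error. Filled points passed the exact binomial test and the fold threshold, dashed lines mark log2 ratios of -0.5 and 0.5, and the grey band holds the middle 50% of all genes tested. The 20S and 19S classes lie left of 0 in HFD over SD and in CCl4 over corn oil, and around 0 in HFD plus JT003 over HFD.

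Promoter sequence was compared for the genes that led these results. Of the 49 members, 41 matched the RefSeq promoter table (GRCm38.p6), which gives 250 bases before to 50 after a gene's start. Not in it were Psma8, Psmb1, Psmb2, Psmb7, Psmc3, Psmd3, Psmd7 and Psmg2. Each window was searched on both strands for 3 motifs: the antioxidant response element core bound by NRF1 and NRF2 (TGACNNNGC or TGAGNNNGC), the interferon-stimulated response element (GAAANNGAAA) and the gamma-activated site (TTCNNNGAA). The first was held by 16 of 41 members (39.0%), and by 30.8% of the 27025 genes in the table. These members were 12 of 25 constitutive genes with a window, 0 of 3 immune subunits and others outside both classes. The second was held by 5 of 41 members, Psmb3, Psmd4, Psmd9, Psme1 and Psmg4, and by 3.99% of all genes. The third was held by 3 members, Psmb8, Psmd2 and Psmg1, and by 9.55% of all genes. A match is a description of letters and not a bound site.

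The windows of Psmd4, Psmd9, Psma5 and 2 immune subunits are printed 5′ to 3′ in gene direction, with matches in capitals. Psmd4 had the lowest log2 ratio among members called in HFD over SD, and Psma5 in CCl4 over corn oil. Psmd9 came next in both. Psmd4 lies at chr3:95042565-95042864 on the minus strand, and its capitals mark an interferon-stimulated response element on the reverse strand. Psmd9 lies at chr5:123227940-123228239 on the plus strand, with an interferon-stimulated response element first and an antioxidant response element after it. Psma5 lies at chr3:108256676-108256975 on the plus strand, with an antioxidant response element on the reverse strand. Psmb8 lies at chr17:34197945-34198244 on the plus strand, with a gamma-activated site, and Psmb9 at chr17:34187281-34187580 on the minus strand, with no match to these letters in this window.
Psmd4: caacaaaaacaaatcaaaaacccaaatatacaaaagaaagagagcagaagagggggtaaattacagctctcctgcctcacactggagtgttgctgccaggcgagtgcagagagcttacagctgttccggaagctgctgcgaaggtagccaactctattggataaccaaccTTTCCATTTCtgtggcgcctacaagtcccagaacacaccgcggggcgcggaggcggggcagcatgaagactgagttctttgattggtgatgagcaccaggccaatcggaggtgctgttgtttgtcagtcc
Psmd9: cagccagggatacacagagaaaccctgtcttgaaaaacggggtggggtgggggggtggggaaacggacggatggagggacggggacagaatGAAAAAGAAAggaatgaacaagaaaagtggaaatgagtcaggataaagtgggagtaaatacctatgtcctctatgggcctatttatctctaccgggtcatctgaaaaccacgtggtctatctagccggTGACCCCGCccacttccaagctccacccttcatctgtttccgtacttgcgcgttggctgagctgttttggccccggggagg
Psma5: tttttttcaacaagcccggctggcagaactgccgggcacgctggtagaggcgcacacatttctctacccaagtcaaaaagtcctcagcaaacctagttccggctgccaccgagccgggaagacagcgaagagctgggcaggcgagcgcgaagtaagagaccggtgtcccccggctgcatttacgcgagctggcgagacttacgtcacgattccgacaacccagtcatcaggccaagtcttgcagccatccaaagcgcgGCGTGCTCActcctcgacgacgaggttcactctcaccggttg
Psmb8: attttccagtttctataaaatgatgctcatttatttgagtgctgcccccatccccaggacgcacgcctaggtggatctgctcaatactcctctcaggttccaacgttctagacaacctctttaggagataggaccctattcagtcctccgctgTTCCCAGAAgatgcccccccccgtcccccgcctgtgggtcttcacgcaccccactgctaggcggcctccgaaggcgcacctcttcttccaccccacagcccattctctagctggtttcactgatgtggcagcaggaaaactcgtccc
Psmb9: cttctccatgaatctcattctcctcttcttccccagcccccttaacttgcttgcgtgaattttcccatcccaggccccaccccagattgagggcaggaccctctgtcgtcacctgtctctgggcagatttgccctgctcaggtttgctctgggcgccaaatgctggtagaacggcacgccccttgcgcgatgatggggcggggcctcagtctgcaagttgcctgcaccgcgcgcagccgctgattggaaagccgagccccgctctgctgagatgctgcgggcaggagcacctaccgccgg

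None of the 4 activators was called in HFD over SD or in CCl4 over corn oil. Psme1, which with Psme2 forms the PA28 ring that serves the immune proteasome, had an FPKM of 74.8 in SD, 59.5 in HFD and 66.2 with HFD plus JT003, against 92.8 in corn oil, 118 after CCl4 and 93.4 after CCl4 plus JT003. The 3 CCl4 model libraries were above the 3 diet libraries, and its log2 ratios were -0.45 in HFD over SD and 0.11 in CCl4 over corn oil. Psme2 had an FPKM of 57.4 in SD, 60.3 in HFD and 65.99 with HFD plus JT003, against 67.7 in corn oil, 86.7 after CCl4 and 91.5 after CCl4 plus JT003, with log2 ratios of -0.03 and 0.13. Part of its counts is split with Psme2b, a near-identical gene with 5.16 to 29.3 counts, so both are uncertain. Psme3, the nuclear activator PA28 gamma, had an FPKM of 32.8 in SD, 29.8 in HFD and 26.1 with HFD plus JT003, against 19.03 in corn oil, 27.4 after CCl4 and 21.9 after CCl4 plus JT003 and log2 ratios of -0.26 and 0.29. Psme4, the large activator PA200, had an FPKM of 16.7 in SD, 16.3 in HFD and 20.8 with HFD plus JT003, against 10.4 in corn oil, 11.9 after CCl4 and 12.4 after CCl4 plus JT003 and log2 ratios of -0.15 and -0.05. For Psme3 and Psme4 the corn oil library was the lowest of the 6.

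The inhibitor and the assembly chaperones split by gene. Psmf1 had counts of 754 in SD, 606 in HFD and 545 with HFD plus JT003, against 751 in corn oil, 1014 after CCl4 and 716 after CCl4 plus JT003, with log2 ratios of -0.41 in HFD over SD and 0.14 in CCl4 over corn oil, neither called. Psmd9, a chaperone of the ATPase ring, had counts of 1275 in SD, 649 in HFD and 672 with HFD plus JT003, against 1231 in corn oil, 853 after CCl4 and 913 after CCl4 plus JT003. HFD over SD gave -1.06 (95% interval -1.20 to -0.93) and CCl4 over corn oil -0.82 (95% interval -0.95 to -0.69) on the log2 scale, both called lower. All 4 injured libraries lay below both controls for Psmd9. The other 2 chaperones of the ATPase ring were not called. Psmd5 had log2 ratios of 0.07 and 0.43, and Psmd10, also known as gankyrin, of 0.02 and -0.08.

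The core chaperones were expressed at a lower level than the particle. Psmg1 had an FPKM of 18.1 in SD, 15.2 in HFD and 12.6 with HFD plus JT003, against 18.6 in corn oil, 22.0 after CCl4 and 19.8 after CCl4 plus JT003. Psmg2, its partner, had an FPKM of 9.49 in SD, 9.27 in HFD and 7.67 with HFD plus JT003, against 9.64 in corn oil, 11.3 after CCl4 and 14.7 after CCl4 plus JT003. HFD plus JT003 was lowest for both. Psmg3 had an FPKM of 7.74 in SD, 9.83 in HFD and 8.06 with HFD plus JT003, against 11.97 in corn oil, 11.9 after CCl4 and 15.04 after CCl4 plus JT003. Psmg4, its partner, had an FPKM of 9.92 in SD, 9.66 in HFD and 7.19 with HFD plus JT003, against 12.4 in corn oil, 10.8 after CCl4 and 14.9 after CCl4 plus JT003. CCl4 plus JT003 was highest for both. Their log2 ratios ran from -0.37 to 0.22 in HFD over SD and from -0.40 to 0.00 in CCl4 over corn oil, none called.

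A further question was whether JT003 moved these genes in injured livers. In the diet model 0 of 49 members were called between HFD plus JT003 and HFD, where 5.65% of all 17089 genes tested were called, 2.69% higher and 2.96% lower. At an adjusted p under 0.05 with the same fold threshold, 1 member was called, the low-count Psme2b, where 8.77% of all genes were called. The exact test of edgeR with an assumed spread called 0 members, and 0.427% of all genes. Without a fold threshold 5 members passed, where 14.2% of all genes did. The log2 ratios of the 31 constitutive genes ran from -0.28 to 0.14 with a median of -0.06, so the lower level in HFD stood also in the library with JT003. Leaving out the low-count Psme2b and Psma8, the values farthest from 0 were those of Psmg4 at -0.46 (95% interval -0.92 to -0.02), Psmd10 at -0.36 (95% interval -0.68 to -0.06) and Psme4 at 0.33 (95% interval 0.25 to 0.42). Psmb9 stood at -0.28 (95% interval -0.51 to -0.06). In these libraries 3 of 5 macrophage genes were called higher with JT003.

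In the CCl4 model 2 of 49 members were called between CCl4 plus JT003 and CCl4, both lower, where 7.15% of all 17393 genes tested were called lower and 5.82% higher. Psmd11 had counts of 1984 in SD, 1289 in HFD and 1439 with HFD plus JT003, against 1410 in corn oil, 1917 after CCl4 and 1193 after CCl4 plus JT003, a log2 ratio of -0.69 (95% interval -0.80 to -0.59). Psmf1, the inhibitor, stood at -0.51 (95% interval -0.65 to -0.37). With the remainder in place of the CCl4 library neither was called, at -0.44 (95% interval -0.53 to -0.34) for Psmd11 and -0.14 (95% interval -0.27 to -0.02) for Psmf1, and the 2 genes called, Psmg3 and Psme2b, were higher, where 5.73% of all genes were called higher and 8.03% lower. The constitutive median was -0.04, or 0.05 with the remainder. The 11 non-ATPases had a median of -0.28 and all lay below 0, whereas with the remainder the median was -0.045 and 9 lay below 0. The 14 core genes had a median of 0.03, or 0.19 with the remainder. Genes of dividing cells were called lower with JT003 for 5 of 5, from 54.9 to 6.02 summed FPKM. That was read against the CCl4 library only, and these genes were not compared with the remainder.

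The treated libraries were also set against the controls. In HFD plus JT003 over SD, 17 of the 31 constitutive genes were called lower and 0 higher, with a median log2 ratio of -0.58, where 8.51% of all genes were called lower and 7.62% higher. Psmd4 reached -1.51 (95% interval -1.60 to -1.42), and Psmb10 and Psmb9 were called higher at 0.82 and 0.78. In CCl4 plus JT003 over corn oil, 19 were called lower and 0 higher, with a median of -0.54, where 5.34% of all genes were called lower and 6.02% higher. By total reads alone 11 of the 31 were called lower in the first of these and 3 in the second, where 5.46% and 2.15% of all genes were. Among the constitutive genes Psmd4 again lay lowest at -1.04 (95% interval -1.13 to -0.96), followed by Psmd14 at -0.92. Psmb10 was called higher at 0.66 (95% interval 0.48 to 0.85), while Psmb9 stood at 0.00.

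The 2 control libraries differed from each other as well. Between corn oil and SD, 4 of 49 members were called, where 8.00% of all genes were called higher and 10.4% lower. Psmb3 at 0.61 (95% interval 0.51 to 0.71) and Psmg3 at 0.72 (95% interval 0.40 to 1.06) were higher in corn oil. Psme3 at -0.69 (95% interval -0.80 to -0.57) and Psme4 at -0.58 (95% interval -0.68 to -0.48) were lower. All 14 core genes had a log2 ratio above 0, with a median of 0.31, and the 19S genes had a median of 0.09. Macrophage genes were called lower in corn oil for 5 of 5. The 2 control libraries were thus up to 0.61 apart for a constitutive gene. Of the constitutive genes called lower, 7 of 14 in HFD over SD and 5 of 13 in CCl4 over corn oil were farther from 0 than that. The median of the 31 genes was 0.21 between the controls, beside -0.49 in HFD over SD and -0.48 in CCl4 over corn oil. Both of the latter are nearer to 0 than 0.61, which is the gap of a single gene. The controls belong to different models and are not replicates of each other.

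Genes that work with the particle but do not carry a Psm symbol were read from lists. Of 13 measured partners, 2 were called lower in CCl4 over corn oil, the core maturation factor Pomp at -0.60 (95% interval -0.70 to -0.51) and the deubiquitinase Usp14 at -0.65 (95% interval -0.81 to -0.49), and 0 higher. The partners' median log2 ratios were -0.24 in HFD over SD and -0.18 in CCl4 over corn oil. Adrm1, the other main ubiquitin receptor of the 19S cap, stood at -0.41 (95% interval -0.51 to -0.32) in the first of these and -0.49 (95% interval -0.57 to -0.40) in the second, neither called. Among genes of ubiquitin supply and its segregase, the ubiquitin-activating enzyme Uba1 and the segregase cofactor Nploc4 were called lower in HFD over SD at -0.52 and -0.69.

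Of 7 genes for the transcription factors of proteasome genes and their processing enzymes, 1 was called higher in HFD over SD (Maff) and 2 in CCl4 over corn oil (Nfe2l2 and Ddi2). Nfe2l1, which encodes NRF1, the activator of proteasome genes when proteasome activity is short, had an FPKM of 48.2 in SD, 41.2 in HFD and 35.7 with HFD plus JT003, against 25.9 in corn oil, 34.9 after CCl4 and 28.5 after CCl4 plus JT003. HFD over SD gave -0.38 (95% interval -0.45 to -0.32) and CCl4 over corn oil 0.24 (95% interval 0.16 to 0.33) on the log2 scale, neither called. Nfe2l2, which encodes NRF2, had an FPKM of 24.5 in SD, 32.3 in HFD and 28.8 with HFD plus JT003, against 17.2 in corn oil, 45.2 after CCl4 and 42.6 after CCl4 plus JT003, and was higher in CCl4 than in corn oil by a log2 ratio of 1.19 (95% interval 1.08 to 1.31) while the 31 constitutive genes had a median of -0.48. Ddi2, the protease that activates NRF1, had an FPKM of 48.4 in SD, 37.9 in HFD and 37.04 with HFD plus JT003, against 11.4 in corn oil, 19.6 after CCl4 and 9.21 after CCl4 plus JT003, with the CCl4 model libraries below the diet libraries. The transcript level of a factor does not give its activity, which was not measured here.

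Among the antigen processing genes, Erap1, a peptide-trimming enzyme, was called higher in HFD over SD at 0.64 (95% interval 0.51 to 0.77). Tap1, the peptide transporter gene that lies beside Psmb9 in the genome, had an FPKM of 9.22 in SD, 13.7 in HFD and 12.6 with HFD plus JT003, against 6.58 in corn oil, 6.72 after CCl4 and 7.85 after CCl4 plus JT003. It stood at a log2 ratio of 0.45 (95% interval 0.29 to 0.61) in HFD over SD, not called, and at -0.21 (95% interval -0.41 to 0.00) in CCl4 over corn oil. In the CCl4 comparison Tapbpl was called higher and Nlrc5 lower. With JT003 in the diet model, 1 gene of these 4 lists was called, the small Maf factor Mafk at -0.85 (95% interval -1.11 to -0.61). With JT003 in the CCl4 model, Ubqln1 at -0.67, Uba1 at -0.85, Ddi2 at -1.15 and Tap2 at -0.55 were among the genes called lower, and Maff at 0.77, Nlrc5 at 1.00 and Irf1 at 0.54 among those called higher.

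The 2 tissue forms were close to absent in liver. Psma8, the testis alpha subunit, had counts of 14 in SD, 18 in HFD and 14 with HFD plus JT003, against 15 in corn oil, 23 after CCl4 and 6 after CCl4 plus JT003. Psmb11, the thymus beta subunit, had counts of 31.8 in SD, 27.2 in HFD and 30.9 with HFD plus JT003, against 32.4 in corn oil, 34.1 after CCl4 and 48.97 after CCl4 plus JT003. Both stayed under 1 FPKM in every library and neither was called in any of the 7 comparisons.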

How the data were processed

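RNA-seq libraries from mouse liver, 1 for each of 6 conditions, were read on a BGISEQ-500. The authors' processing notes name HISAT, Bowtie2, RSEM and build mm9, with no versions. The deposited values used here are expected counts per gene, estimated with RSEM and not normalized, and FPKM, which the authors scaled by transcript length and total reads. Reads shared by paralogs are split by RSEM, which can move counts between Psme2 and Psme2b. The 7 expression columns of other material and the fold change and p-value columns of the authors' 4 comparison tables were not used.

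Expected counts were rounded to whole numbers. Libraries were scaled by TMM within each model, and over all 6 libraries for corn oil over SD (edgeR 4.0.16, R 4.3.3). Each of 7 comparisons used a two-sided exact binomial test of the 2 counts of a gene (scipy 1.17.1), given the scaled library sizes, with Benjamini-Hochberg adjustment over every gene that had a read in either library. Calls were made where the adjusted p was under 0.001 and the log2 ratio, with a prior count of 2, was 0.5 or more in size. Intervals are 95% Clopper-Pearson intervals and cover counting error only, and no replicate spread could be estimated. The calculation was tested on simulated data. The authors' pooled CCl4 column was used after subtraction of the CCl4 library, since its total was 2.97 times that library. In 24 genes it fell short of the library by up to 0.99 counts.

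The members follow from gene symbols. The classes and gene lists were chosen with earlier results of these data known. By rule, values were given for the catalytic subunits, activators, Psmf1, Psmg1 to Psmg4 and the 5 called members with the largest absolute log2 ratio in each of HFD over SD, HFD plus JT003 over HFD, CCl4 over corn oil and CCl4 plus JT003 over CCl4. Other genes with values in the text were chosen after their values were seen. Some genes of the lists are not reported here, so the genes named from a list need not be all that were called. Promoters come from a RefSeq table of GRCm38.p6, another build than the authors' mm9, so no position was compared between them. Alternatives covered the scaling (total reads, DESeq2 1.42.0 size factors, TMM over all libraries), the thresholds, the prior count, a filter on low counts, an assumed biological coefficient of variation of 0.2, log2 of FPKM with a pseudocount of 1, and the pooled CCl4 counts.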

Additional observations from a re-analysis of the deposited data

How the results depend on the processing

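No paired analysis was possible because each condition had 1 library. With 1 library a condition no spread between mice can be estimated, and depth bears on counting error alone, which was widest for Psme2b, Psma8 and Psmb11. Over the alternatives, single-member results stayed on their side of the threshold in 1425 cases, passed it newly in 57 and lost it in 102. The 1425 include uncalled values that changed sign, such as Psme1 in CCl4 over corn oil, at 0.11, or -0.26 with the remainder. No called value changed sign. Scaling by total reads raised the median of all genes by 0.12 in HFD over SD, 0.22 in CCl4 over corn oil and 0.29 in CCl4 plus JT003 over corn oil. The members called were then 10 in HFD over SD (median -0.24), 6 in CCl4 over corn oil (median -0.085, 3 higher and 3 lower), 1 in CCl4 plus JT003 over CCl4 and 5 in CCl4 plus JT003 over corn oil (median -0.090). The log2 of FPKM plus 1 gave 10 (median -0.24), 1 in HFD plus JT003 over HFD, 6 in CCl4 over corn oil (median -0.080), a median of -0.31 in HFD plus JT003 over SD, and 5 (median -0.085) in CCl4 plus JT003 over corn oil. That measure called 13.5% of all genes in HFD over SD and 6.55% in HFD plus JT003 over HFD. It called 18.5% in CCl4 over corn oil and 16.2% in CCl4 plus JT003 over corn oil. FPKM follows total reads by construction. A 2-fold threshold left 3 members in HFD over SD, 0 in CCl4 over corn oil, 0 in CCl4 plus JT003 over CCl4, 2 in HFD plus JT003 over SD, 1 in CCl4 plus JT003 over corn oil and 0 in corn oil over SD. Of all genes it left 5.37%, 7.18%, 4.42%, 5.93%, 4.95% and 5.41% in that order. With no fold threshold the counts in the same order were 32, 30, 15, 36, 34 and 28, with 5 in HFD plus JT003 over HFD. The shares of all genes were then 23.4%, 26.1%, 24.0%, 26.7%, 20.5% and 28.7%, with 14.2% in HFD plus JT003 over HFD. At an adjusted p under 0.05, 1 was called in HFD plus JT003 over HFD, where 8.77% of all genes were called. Where edgeR was given a biological coefficient of variation of 0.2, 0 members were called in HFD over SD, CCl4 over corn oil, CCl4 plus JT003 over CCl4, CCl4 plus JT003 over corn oil and corn oil over SD, and 1 in HFD plus JT003 over SD. That setting used an adjusted p under 0.05 and called 1.85% to 4.23% of all genes in these comparisons. The pooled CCl4 counts without the CCl4 library, chosen after seeing the data, gave 22 members called over corn oil and a median of -0.47. Of all genes 20.8% were called there. The causes of these differences were not tested.

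Taken from counts without division by length, the immune share at beta1 was 7.56% in SD, 19.8% in HFD, 17.5% in HFD plus JT003, against 6.84% in corn oil, 8.91% after CCl4 and 8.73% after CCl4 plus JT003. At beta2 it was 11.7%, 22.5%, 21.8%, 13.3%, 19.4% and 25.9% in that order, and at beta5 18.4%, 28.2%, 34.6%, 15.4%, 20.9% and 19.9%. The lengths of the 2 transcripts at each site set this difference.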
